A study of Mus musculus with 20 samples.

Results

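The 9 genes described here encode subunits of the Polycomb repressive complexes and were taken from the peak lists of a reprogramming study, by name, from 21938 protein-coding mouse genes on chromosomes 1 to 19, X and Y. The members were Ezh2, Ezh1, Eed, Suz12, Jarid2, Cbx2, Cbx7, Cbx8 and Bmi1, and all 9 were found in the annotation. For each, KLF4 peaks and JMJD3 positions were listed in the gene and 50 kb on each side, and H3K27me3 peaks within 5 kb of a transcription start site (TSS). No demethylase is among the 9, and the demethylase genes Kdm6a (UTX) and Kdm6b (JMJD3) were looked at in a wider list.

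The cells were mouse embryonic fibroblasts (MEFs), connective tissue cells that OSKM (Oct4, Sox2, Klf4 and c-Myc, delivered by virus) can turn into pluripotent cells. Chromatin immunoprecipitation followed by sequencing (ChIP-seq) gave 14 lists, with 1 library per group, and no test over samples was run. Of the 10 H3K27me3 lists, a WT (Jmjd3+/+, strain label C57BL/6J-OG2, which carries an Oct4-GFP reporter) and a KO (Jmjd3-/-, strain label C57Bl6J) list came from MEFs on day 0 with no virus. The other 8 came from WT or KO cells on day 5 or day 10 of OSKM with overexpression of either FLAG, the control, or Jmjd3. The 2 KLF4 lists came from WT cells on day 5 of OSKM with FLAG or with Jmjd3. The 2 JMJD3 lists came from WT cells on day 5 that overexpressed FLAG-tagged JMJD3 with OSKM or with OSlowKM, in which KLF4 is kept low. Medium with vitamin C was described for the reprogrammed cells. WT and KO cells differed in strain label as well, so genotype and strain cannot be told apart. In the paper, the WT and KO MEFs at passage 2 used to count colonies were littermates without the OG2 reporter, which does not match the WT strain label. The paper also names WT and KO MEFs at passage 2 for the H3K27me3 ChIP-seq.

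The H3K27me3 lists held 3045 to 6954 peaks, the KLF4 lists 10655 (FLAG) and 14391 (JMJD3), and the JMJD3 lists 14067 (OSKM) and 2284 (low KLF4) positions. The lists carry no read numbers, and read depth was not used here, so a peak that was not called may be a weak one. They hold no expression either, and the Jmjd3 knockout and the cell type could not be checked from them directly. Of 6 fibroblast genes, 0 or 1 carried an H3K27me3 peak in 9 lists and 3 (Col1a1, Thy1 and Postn) in KO day 10 JMJD3. Of 4 pluripotency genes, Esrrb was marked in all 10 lists, Pou5f1 in 3, Nanog in 2 and Zfp42 in 0.

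Polycomb group proteins keep developmental genes silent. Polycomb repressive complex PRC2 places H3K27me3, the trimethylation of a lysine in the tail of histone H3, through its catalytic subunits EZH2 or EZH1, and PRC1 complexes, some of which read this mark through a CBX protein, ubiquitinate histone H2A. JMJD3 and UTX remove H3K27me3, and so oppose PRC2.

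At 7 of the 9 members a KLF4 peak lay within 1 kb of the TSS, and the sequence at 5 of these is shown because it is where KLF4 binding and the start site meet. The bases are a stretch of the peak called with JMJD3 that lies outside annotated exons, up to 300 bases, from GRCm38.p6 (the build of mm10), on the strand of the gene. Capitals mark the KLF motif GGGNGTGG, searched on both strands. Where a peak held several such stretches, the one with most KLF motifs was taken, then the longest, so stretches with a motif were favoured. The Ezh2 stretch was chr6:47595342-47595436, minus strand; Suz12 chr11:79992873-79993103, plus strand; Ezh1 chr11:101226464-101226632, minus strand; Cbx7 chr15:79932769-79932838, minus strand; and Cbx8 chr11:119041119-119041418, minus strand.
Ezh2: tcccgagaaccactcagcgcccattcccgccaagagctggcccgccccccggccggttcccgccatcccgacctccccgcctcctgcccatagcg
Suz12: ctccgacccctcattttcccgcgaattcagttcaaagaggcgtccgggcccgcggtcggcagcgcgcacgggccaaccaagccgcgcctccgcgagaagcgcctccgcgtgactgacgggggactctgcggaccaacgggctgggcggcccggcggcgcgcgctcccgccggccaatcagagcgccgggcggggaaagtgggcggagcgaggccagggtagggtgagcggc
Ezh1: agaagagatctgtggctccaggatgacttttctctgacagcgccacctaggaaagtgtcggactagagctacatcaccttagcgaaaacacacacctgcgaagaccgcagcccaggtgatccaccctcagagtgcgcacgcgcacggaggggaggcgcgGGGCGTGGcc
Cbx7: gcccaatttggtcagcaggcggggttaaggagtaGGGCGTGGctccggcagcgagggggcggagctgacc
Cbx8: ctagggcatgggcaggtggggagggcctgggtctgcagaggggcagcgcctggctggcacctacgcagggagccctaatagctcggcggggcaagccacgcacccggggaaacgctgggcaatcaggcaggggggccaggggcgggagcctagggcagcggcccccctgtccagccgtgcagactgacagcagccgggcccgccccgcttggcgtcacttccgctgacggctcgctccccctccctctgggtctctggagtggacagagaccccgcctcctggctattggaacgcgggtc
The Ezh1 and Cbx7 stretches each held 1 KLF motif, and those of Ezh2, Suz12 and Cbx8 held none. These counts follow from the choice of stretch and cover the printed bases, not the whole peaks. All 5 were rich in G and C, from 60.4% in Ezh1 to 74.0% in Suz12, and held between 5 (Cbx7) and 35 (Suz12) CpG dinucleotides.

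These promoters were CpG-rich as a group. RefSeq promoter sequences of 300 bases (GRCm38.p6) were matched for 8 of the 9 members, with 2 for Jarid2, and not for Cbx2. Their ratio of observed to expected CpG, the number of CpG divided by that which the C and G content gives, ran from 0.708 in Bmi1 to 1.09 in Suz12, against a median of 0.384 over all 32851 promoters, of which 28.4% reached the Bmi1 value. The KLF motif was in 3 of the 9 member promoter sequences (Ezh1, Cbx7 and Cbx8) and in 17.6% of all.

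The first question was which Polycomb genes KLF4 and JMJD3 occupied on day 5. Within the gene and 50 kb on each side, KLF4 was called at 8 of the 9 members with FLAG, all but Ezh2, where 59.5% of all protein-coding genes had a peak, and at 9 of 9 with JMJD3, where 67.2% of all did. JMJD3 positions with OSKM were found at 9 of 9, against 55.6% of all genes. With the wider peaks of each KLF4 list alone, KLF4 with FLAG was at 4 of 9, against 42.6% of all genes. KLF4 with JMJD3 was then at 8 of 9, all but Ezh2, against 52.1%. With low KLF4, positions were found at 3 of 9 (Eed, Jarid2 and Bmi1), against 14.1% of all genes, or against 23.7% of the genes that had a position with OSKM. Since most genes have KLF4 within this distance, the start sites themselves separate the members better. Within 1 kb of a TSS, here called the promoter, KLF4 was called at 5 of 9 members with FLAG (24.4% of all genes) and at 7 of 9 with JMJD3 (32.9%), and JMJD3 with OSKM at 4 of 9 (17.7%). With low KLF4, 0 of 9 had a JMJD3 position there (2.96% of all genes).

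**Figure D1:**
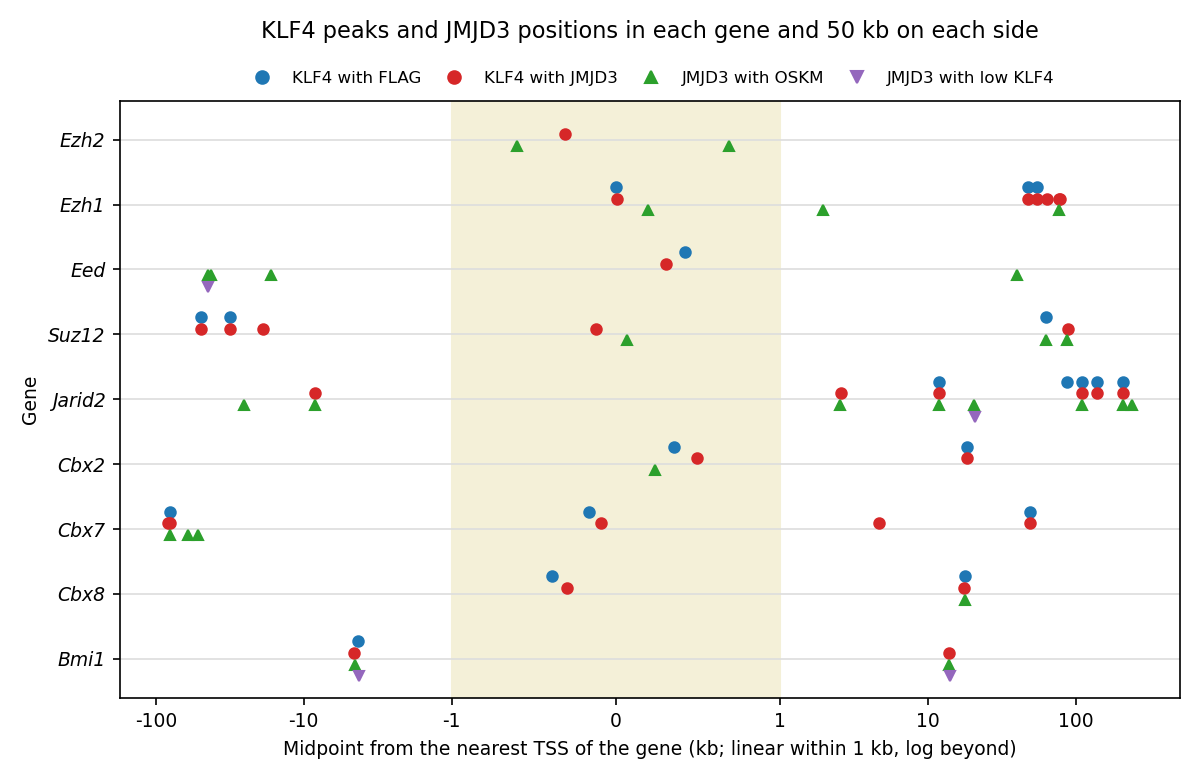
Distance in kb from the nearest TSS of each gene (x axis, linear within 1 kb and logarithmic beyond) to the midpoint of every KLF4 peak and JMJD3 position in the gene and 50 kb on each side, by gene (y axis) and by list (colour and symbol); the shaded band is 1 kb on each side of the TSS. KLF4 lies in the band at 7 genes with JMJD3, JMJD3 with OSKM at 4, and JMJD3 with low KLF4 at none.

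Among the PRC2 genes, Ezh2 and Suz12 had a KLF4 peak at the promoter with JMJD3 and not with FLAG. At Ezh2 (chr6:47530139-47595341, minus strand), which encodes the main methyltransferase of dividing cells, the only KLF4 peak in the window lay 307 bp upstream of the nearest TSS used here, in the JMJD3 list (chr6:47595239-47595436). Its midpoint was still inside the annotated span of the gene, which extends past this TSS. JMJD3 positions with OSKM stood on both sides of this TSS, 599 bp upstream between genes and 691 bp downstream in an intron. At Suz12 (chr11:79993106-80034123, plus strand), a subunit that PRC2 needs to be stable, the KLF4 peak of the JMJD3 list was centred 118 bp upstream of the TSS (chr11:79992873-79993103) and a JMJD3 position lay 70 bp downstream of it. The other KLF4 peaks at Suz12 were in or near the neighbours Utp6 and Crlf3. The promoter peaks of Ezh2 (198 bp wide) and Suz12 (231 bp) were narrower than the median of the JMJD3 list (295 bp). With the wider peaks of that list alone, Ezh2 had no KLF4 peak in its window. Of the 4 members without a promoter KLF4 peak in the FLAG list, these 2 had a peak in the JMJD3 list, against 13.6% of all such genes. None of the 5 members with a promoter peak in the FLAG list lacked it in the JMJD3 list, against 7.25% of all such genes.

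Ezh1 and Eed carried promoter KLF4 in both lists. At Ezh1 (chr11:101191115-101226463, minus strand), the second methyltransferase, the KLF4 peak was centred 1 bp upstream of a TSS with FLAG (chr11:101226277-101226578) and 6 bp downstream with JMJD3, in untranslated exon sequence. JMJD3 with OSKM was called 194 bp and 1942 bp downstream, both in introns. At Eed (chr7:89954654-89980983, minus strand), the subunit that binds H3K27me3 and stimulates the enzyme, KLF4 lay 419 bp (FLAG) and 308 bp (JMJD3) downstream of the TSS, in untranslated exon sequence. No JMJD3 position was near the Eed TSS, and the closest of 4 was 16739 bp upstream. The position of the list with low KLF4 was 44137 bp upstream, beside the position with OSKM at 44134 bp, both in an intron of E230029C05Rik.

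Jarid2 (chr13:44729474-44921643, plus strand), an accessory PRC2 subunit that helps bring the complex to chromatin, stood apart from the other 4 PRC2 genes in where its sites lay. It had 5 KLF4 peaks with FLAG, 6 with JMJD3 and 8 JMJD3 positions with OSKM, the most JMJD3 positions of the 9 members, and none within 1 kb of a TSS. The gene is also the longest of the 9, at 192170 bp, so its window is the widest. Of its sites, 5 held both KLF4 and JMJD3. These lay 8392 bp upstream, 2543 bp, 11898 bp and 109055 bp downstream of a Jarid2 TSS, and in the neighbour Dtnbp1. At the site 109055 bp downstream the KLF4 and JMJD3 midpoints were 2 bp apart, and at the site 11898 bp downstream 8 bp apart. With low KLF4, 1 position remained, 20622 bp downstream of the TSS in an intron, where no KLF4 peak was called.

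Among the PRC1 genes, the chromodomain readers Cbx2, Cbx7 and Cbx8 had promoter KLF4 in both lists. At Cbx2 (chr11:119022962-119031270, plus strand) the midpoints were 353 bp (FLAG) and 492 bp (JMJD3) downstream of the TSS and a JMJD3 position lay 237 bp downstream, all in an intron. At Cbx7 (chr15:79915807-79971119, minus strand) KLF4 was 166 bp (FLAG) and 93 bp (JMJD3) upstream of the nearest TSS used here. Both midpoints lay in an intron, inside the annotated span of the gene. A second peak 4692 bp downstream, listed with JMJD3 only, was 183 bp wide, the least width in that list. The JMJD3 positions in the Cbx7 window were all over 50 kb from its TSS, and the position that coincided with KLF4, 3 bp away, was in an intron of Pdgfb. At Cbx8 (chr11:119036305-119040969, minus strand) KLF4 was 389 bp (FLAG) and 300.0 bp (JMJD3) upstream. Cbx2 and Cbx8 lie tail to tail, 5034 bp apart, and share the window, so the JMJD3 position at the Cbx2 promoter is also the only one counted for Cbx8.

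Bmi1 (chr2:18677018-18686629, plus strand), the RING-finger partner of the PRC1 ubiquitin ligase, had no peak or position within 1 kb of its own TSS in any of the 4 lists. Its nearest site was at the promoter of Commd3, whose TSS is 4595 bp upstream of that of Bmi1. All 4 lists met there, with KLF4 at 275 bp (FLAG) and 24 bp (JMJD3) and JMJD3 at 96 bp (OSKM) and 375 bp (low KLF4) downstream of the Commd3 TSS. A second site in Spag6, the next gene downstream, held KLF4 with JMJD3 and both JMJD3 lists, and no KLF4 with FLAG.

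KLF4 and JMJD3 midpoints within 400 bp were merged into sites, of which 41 fell at members and 25100 in the whole series. KLF4 was at 30 member sites, and 15 of these (50.0%) also held JMJD3 with OSKM, against 32.1% of all KLF4 sites. Seen from JMJD3, 15 of 26 member sites (57.7%) held KLF4, against 36.0% of all. Of the 12 member sites with KLF4 in the JMJD3 list alone, 7 (58.3%) held JMJD3, against 25.4% of all such sites, and of the 16 with KLF4 in both lists, 7 (43.8%) did, against 37.2%. All 4 member sites with a position at low KLF4 were also JMJD3 sites with OSKM, as were 79.6% of all 2279 such sites. The sites cluster at few genes, with Jarid2 alone holding 5 of the 15 shared sites, and are not independent.

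In windows of 200 bp around the midpoints, the KLF motif was found at 3 of 18 member KLF4 peaks with FLAG, against 35.5% of that whole list, and at 5 of 28 with JMJD3, against 33.6%. In windows of 400 bp it was found at 6 of 18 (44.2% of the list) and 11 of 28 (42.7%). The windows of the 7 promoter peaks with JMJD3 had a G and C content of at least 67.5%, the value of Ezh2 and Cbx7, where the mean of the list was 59.3%. JMJD3 windows with OSKM held the KLF motif at 1 of 26 (14.6% of the list), the SOX motif CATTGT at 5 of 26 (22.9%), the OCT motif ATGCNAAT at 1 of 26 (6.75%) and the AP-1 motif TGANTCA at 2 of 26 (11.4%). The window 691 bp downstream of the Ezh2 TSS held both a KLF and a SOX motif.

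The second question was which of these genes carried H3K27me3 and whether the calls differed with JMJD3 or its loss. None of the 10 lists held an H3K27me3 peak within 5 kb of the start of Ezh2, Ezh1, Eed, Suz12 or Jarid2, which leaves 5 of 9 members without the mark throughout, as are 77.6% of all genes. All marked members encode PRC1 subunits. Counted within 1 kb of a TSS, 0 to 2 members were marked in each list, against 6.23% to 11.8% of all genes, and Cbx8 was marked in 0 lists and Bmi1 in 2. Cbx8 was marked in all 10 lists, where 4.68% of all genes were. Cbx2 and Bmi1 were each marked in 8 of 10, and Cbx7 in WT MEF alone.

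**Figure D2:**
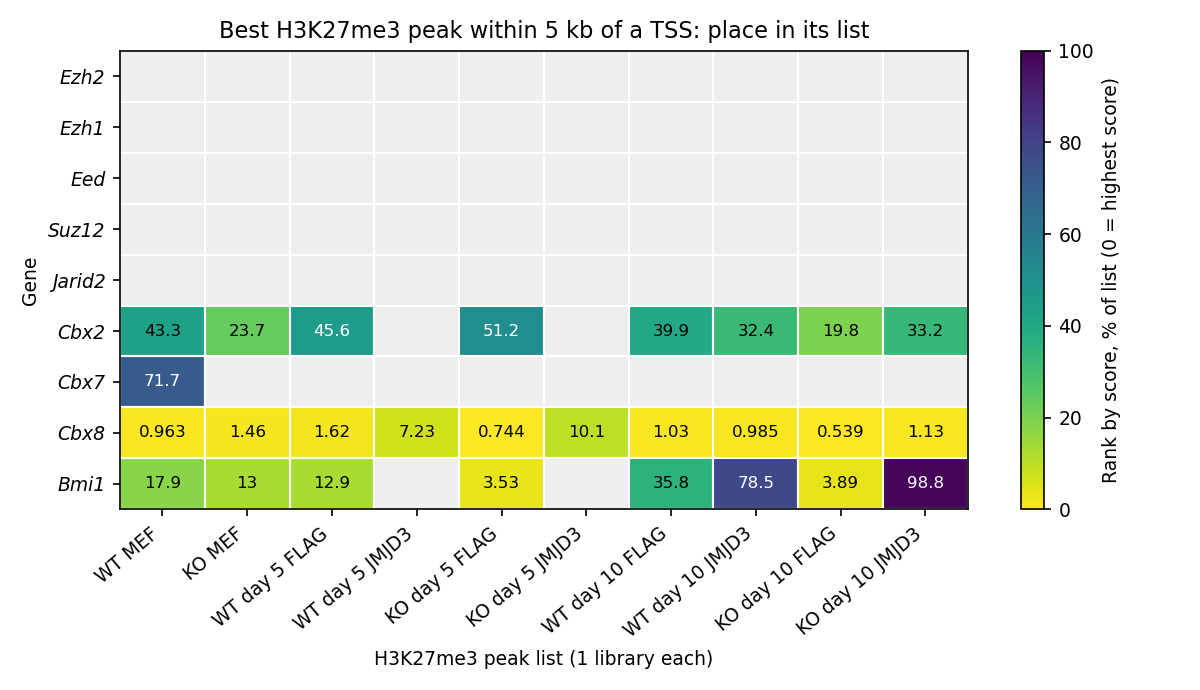
Place of the best H3K27me3 peak within 5 kb of a TSS, for each of the 9 genes (y axis) in each of the 10 lists (x axis, 1 library each), as its rank by score in percent of the list, where a low percentage is a high score; grey cells have no peak. The 5 PRC2 genes are grey throughout, Cbx8 stays at or under 10.1% in all lists, and Cbx2 and Bmi1 are grey in the day 5 JMJD3 lists of both genotypes.

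In MEFs, 4 of 9 members were marked in WT (14.6% of all genes) and 3 of 9 in KO (10.3%), the difference being Cbx7. Its WT peak (chr15:79932568-79933567) covered a TSS and both promoter KLF4 peaks called on day 5, with a score of 8.4, rank 4986 of 6954. The KO list was shorter, with 4113 peaks, and its lowest score was 6.67, against 6.56 in WT. With every list limited to its best 3045 peaks, the number in the shortest, Cbx7 was marked in no list. On day 5, 3 of 9 members (Cbx2, Cbx8 and Bmi1) were marked with FLAG in WT (14.7% of all genes) and in KO (13.7%). With JMJD3, Cbx8 alone was marked, in WT (11.0%) and in KO (13.0%). On day 10 the 3 genes were marked in every list, WT with FLAG (12.1%), WT with JMJD3 (8.26%), KO with FLAG (12.8%) and KO with JMJD3 (11.7%).

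So on day 5, 2 of the 3 genes marked with FLAG had no call with JMJD3, in WT, where 31.8% of all genes marked with FLAG had none, and again in KO, where 20.5% had none. On day 10 it was 0 of 3 in WT (41.3% of all) and 0 of 3 in KO (25.1%). No member that was unmarked with FLAG was marked with JMJD3, on day 5 in WT (1.12% of all) or KO (2.48%) or on day 10 in WT (1.30%) or KO (2.42%). Of the 2653 genes marked with FLAG on day 5 in both genotypes, 302 (11.4%) lacked the call with JMJD3 in both, and Cbx2 and Bmi1 were among them. Of these 302, 36 (11.9%) had the call in both JMJD3 lists of day 10, and Cbx2 and Bmi1 were again among them. These combinations were set up after the values were seen, and both genes rest on the same libraries. The WT JMJD3 list of day 5 was shorter than its FLAG list (5064 against 6428 peaks), and the KO JMJD3 list was longer (6539 against 5643). Limited to the best 3045 peaks, Cbx2 and Bmi1 were still the genes without a call in the day 5 JMJD3 lists, and Bmi1 then had none in KO day 10 JMJD3 either. Counted within 10 kb of a TSS, Bmi1 had a call in KO day 5 JMJD3, from a peak beyond its 3′ end, and Cbx2 alone remained without one in both genotypes.

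The Bmi1 peak lay in an intron, between 918 and 1155 bp from the nearest TSS in the 8 lists that had it (chr2:18677936-18679425 in all). The score of a peak has an unstated scale, so its rank, with 1 for the highest score, is given beside it. In MEFs it was 36.05 in WT (rank 1246 of 6954) and 24.49 in KO (rank 534 of 4113). With FLAG on day 5 it was 44.74 in WT (rank 828 of 6428) and 61.81 in KO (rank 199 of 5643), the highest place Bmi1 reached in any list. With FLAG on day 10 it was 13.31 in WT (rank 1836 of 5131) and 41.58 in KO (rank 209 of 5376).

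With JMJD3 the Bmi1 peak was absent on day 5 and in the lower part of the list on day 10. It scored 7.62 in WT (rank 2390 of 3045) and 6.66 in KO (rank 4821 of 4878). In both genotypes it therefore stood lower with JMJD3 on day 10, as did the best peak of 65.3% of the genes marked in both lists in WT and of 54.1% in KO. The neighbouring peaks took different courses. A peak at the start of Spag6, the next gene, was called in all 10 lists at 2.21% to 16.9% of the list, and in the day 5 JMJD3 lists it stood at 4.8% in WT and 3.0% in KO. A peak between Bmi1 and Spag6 was called in 9 lists, all but WT day 10 JMJD3. On day 5 it stood at 6.22% of the list with FLAG and 87.0% with JMJD3 in WT, and at 4.96% with FLAG and 22.4% with JMJD3 in KO.

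**Figure D3:**
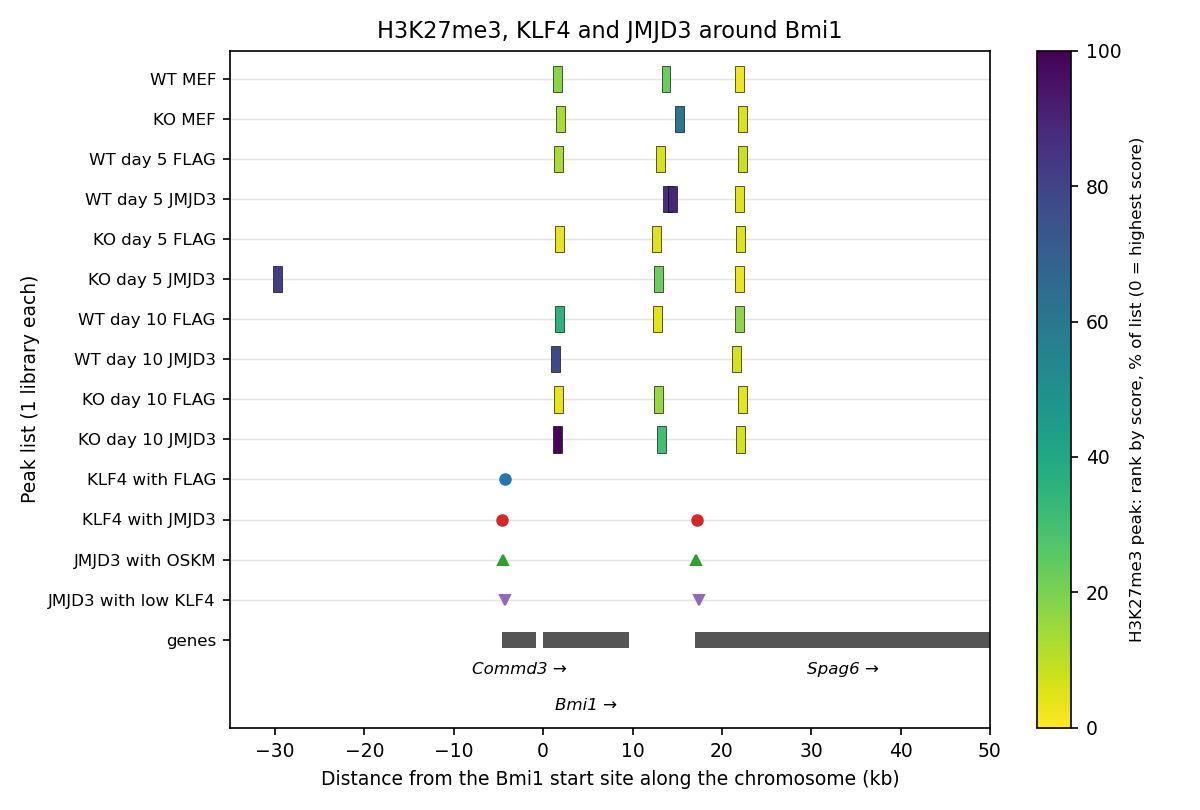
H3K27me3 peaks (boxes to scale, coloured by rank in percent of their list), KLF4 peak midpoints and JMJD3 positions in 14 lists (y axis) by distance from the Bmi1 TSS in kb (x axis), with the genes below. The box inside Bmi1 is missing in both day 5 JMJD3 lists, and the box at the start of Spag6 is present in all 10.

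The Cbx2 peak lay upstream of its TSS, with its nearer edge 174 to 1180 bp away. It scored 14.03 in WT MEF (rank 3009 of 6954) and 17.82 in KO MEF (rank 975 of 4113). With FLAG on day 5 it scored 14.77 in WT (rank 2932 of 6428) and 12.22 in KO (rank 2887 of 5643), and on day 10 12.43 in WT (rank 2047 of 5131) and 20.58 in KO (rank 1067 of 5376). With JMJD3 it was absent on day 5, and on day 10 scored 13.52 in WT (rank 987 of 3045) and 15.86 in KO (rank 1619 of 4878). On day 10 its peak stood at 32.4% of the list with JMJD3 and 39.9% with FLAG in WT, and at 33.2% with JMJD3 and 19.8% with FLAG in KO, in lists of different length.

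Cbx8 had 2 H3K27me3 peaks within 5 kb of its TSS in every list, and neither reached within 1 kb. The stronger lay just past its 3′ end, in or at the edge of the gap towards Cbx2 (chr11:119035069-119036409 in all), 4560 to 4901 bp from the TSS and thus near the limit of 5 kb, and the other upstream of the TSS with its edge 1238 to 2002 bp away. The stronger peak stood within the best 1.62% of 8 lists, with scores of 125.42 in WT MEF, 52.42 in KO MEF, 105.98 in WT day 5 FLAG, 96.94 in KO day 5 FLAG, 61.03 in WT day 10 FLAG, 52.92 in WT day 10 JMJD3, 76.2 in KO day 10 FLAG and 75.82 in KO day 10 JMJD3. In the other 2, the day 5 JMJD3 lists, it scored 48.86 in WT (7.23% of the list) and 66.5 in KO (10.1%). The upstream peak did not follow this order. It stood at 23.2% of the list in WT MEF and 40.1% in KO MEF, and on day 5 at 2.86% with FLAG and 13.1% with JMJD3 in WT, and 3.72% with FLAG and 13.6% with JMJD3 in KO. On day 10 it stood at 14.1% with FLAG and 17.3% with JMJD3 in WT, and at 7.85% with FLAG and 8.69% with JMJD3 in KO. The best peak of Cbx8 was placed lower with JMJD3 than with FLAG on day 5 in WT, as were 64.2% of the genes marked in both lists, and in KO, as were 44.7%. On day 10 it stood at 1.03% with FLAG and 0.985% with JMJD3 in WT, and at 0.539% with FLAG and 1.13% with JMJD3 in KO.

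In the 50 kb upstream of the Cbx2 TSS, its promoter included, the day 5 JMJD3 lists held 0 H3K27me3 peaks in WT and 0 in KO, where the day 5 FLAG lists held 3 in WT and 3 in KO. In MEFs there were 3 in WT and 1 in KO. On day 10 there were 3 with FLAG and 1 with JMJD3 in WT, and 3 with FLAG and 4 with JMJD3 in KO. The peaks other than that at the promoter were nearest to Enpp7.

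**Figure D4:**
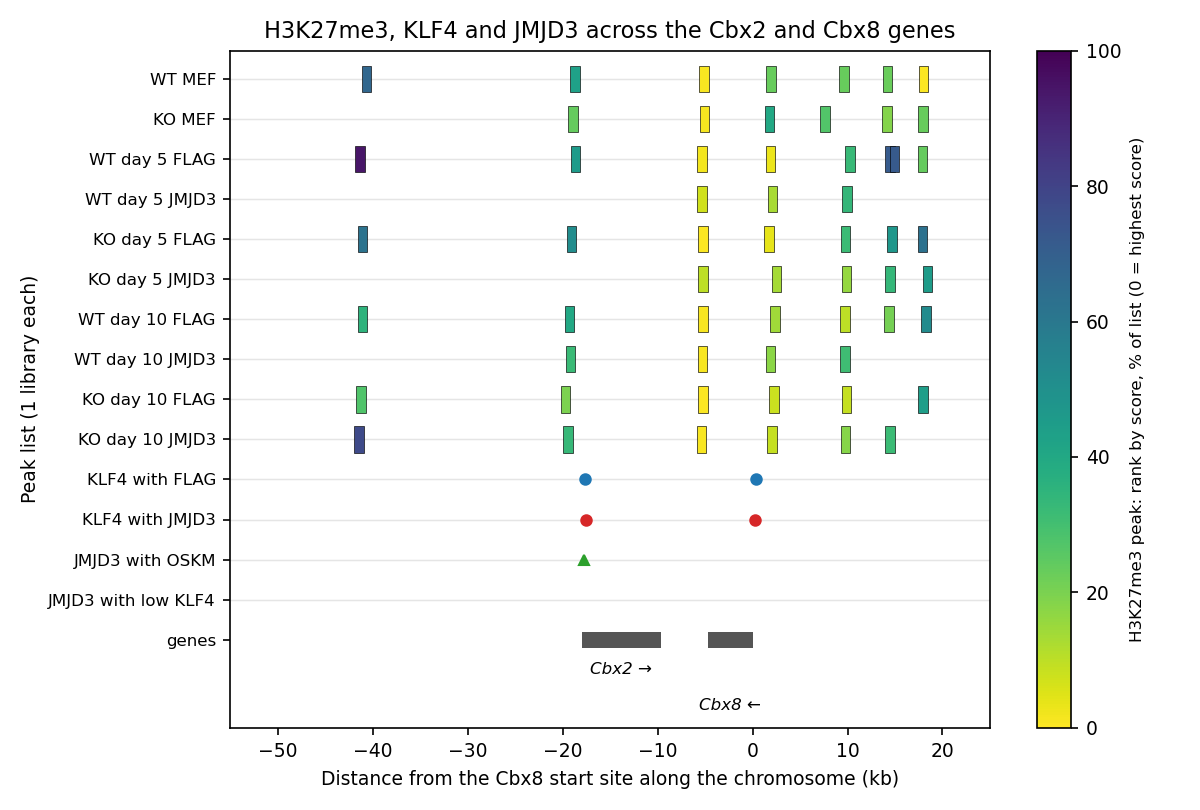
H3K27me3 peaks (boxes to scale, coloured by rank in percent of their list), KLF4 peak midpoints and JMJD3 positions in 14 lists (y axis) by distance from the Cbx8 TSS in kb (x axis), with Cbx2 and Cbx8 below. The boxes on both sides of Cbx8 are present in all 10 H3K27me3 lists, and none is called upstream of the Cbx2 TSS in the day 5 JMJD3 lists.

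KLF4 peaks and JMJD3 positions rarely touched an H3K27me3 peak, at the members as in the whole lists. At Cbx8 the promoter KLF4 peaks were 584 to 1502 bp from the nearest H3K27me3 peak over the 10 lists, and at Cbx2 362 to 11740 bp. Over all members, the 26 JMJD3 positions with OSKM and the 4 with low KLF4 touched no H3K27me3 peak in any of the 10 lists, where 0.121% to 0.597% of the whole list with OSKM and 0.219% to 0.438% of that with low KLF4 did. Of the 18 KLF4 peaks with FLAG, 1 touched a peak of WT MEF, at the Cbx7 promoter (1.52% of the whole list). Of the 28 with JMJD3, 1 touched a peak of WT MEF, at the Cbx7 promoter (2.06% of the whole list), 1 touched a peak of KO MEF, in Pdgfb (1.49%), and neither KLF4 list touched a peak of the 8 reprogramming lists at a member, where 0.601% to 2.08% of the whole lists did.

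Over the gene and 50 kb on each side, H3K27me3 peaks were found at 7 of 9 members in WT MEF (39.3% of all genes) and 7 in KO MEF (29.8%). On day 5 it was 5 with FLAG (37.8%) and 3 with JMJD3 (30.2%) in WT, and 7 with FLAG (35.6%) and 6 with JMJD3 (34.9%) in KO. On day 10 it was 4 with FLAG (32.0%) and 3 with JMJD3 (22.2%) in WT, and 3 with FLAG (33.3%) and 4 with JMJD3 (29.9%) in KO. Cbx2, Cbx8 and Bmi1 were in every list, and Cbx7 in 5, each time at Pdgfb. Jarid2 had 0 in all 10 lists and Eed 1 in KO day 5 FLAG, nearest to Ccdc81. Ezh2 had 1 in each MEF list, 49639 bp and 49741 bp from its TSS, and none later. Suz12 had a peak upstream, near Utp6, in both MEF lists and both KO day 5 lists. Ezh1 had 0 to 4, nearest to Cntnap1, Ccr10, Ramp2 or Wnk4, with 4 in WT MEF and WT day 5 FLAG and 0 in both WT JMJD3 lists and in KO day 10 FLAG.

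The genes whose places in the 10 lists were most like those of a member were found by the mean absolute difference of the percentile rank of the best peak, with 0 where none was called. For Cbx2 these were Atf3 (12.4 points), Pls1 (15.8) and Rasgef1a (16.5), for Bmi1 Nhlh1, Ntf5 and Hsf4 (up to 12.6), and for Cbx8 Elfn2 (1.83), Insm2 (1.92) and Sfi1 (1.95). Atf3 and Pls1 were marked in the same lists as Cbx2, and the genes named for Cbx8 in the same lists as Cbx8. Rasgef1a and the genes named for Bmi1 were not marked in the same lists as their member. Cbx2 and Bmi1 were marked in the same lists as each other. Each shared its pattern with 7 genes, the other of the pair among them, and 1025 other genes shared the pattern of Cbx8.

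The wider list held 27 other Polycomb and demethylase genes, of which 26 were in the annotation. Of these, 20 were marked in none of the 10 lists (77.6% of all genes), and 1 was marked in at least 5, Phc2, a PRC1 subunit, in 7. The other 5 were marked in 2 to 4 lists. They include PRC2 subunits, Phf19 and Epop, each marked in 4, beside the PRC1 genes Pcgf3 (4), Pcgf5 (3) and Rybp (2). Phf19 and Pcgf3 were named after their values were seen. Promoter KLF4 was called at 13 of 26 with FLAG (24.4% of all genes) and at 16 of 26 with JMJD3 (32.9%), and JMJD3 with OSKM at 10 of 26 (17.7%). Both KLF4 with JMJD3 and JMJD3 with OSKM were at the promoter of 8 of 26, namely Rbbp4, Rbbp7, Aebp2, Pcgf5, Ring1, Rnf2, Phc2 and Phc3, and of 4 of the 9 members, Ezh2, Ezh1, Suz12 and Cbx2, against 13.1% of all genes. Of genes with promoter KLF4 in the JMJD3 list, 4 of 7 members and 8 of 16 of the wider list also had JMJD3, against 39.8% of all. Within 50 kb, both factors were at 22 of 26 and at 9 of 9 members, against 48.7% of all genes, and the 22 were these 8 and Phf1, Epop, Pcgf1, Pcgf2, Pcgf6, Rybp, Yaf2, Phc1, Scmh1, Cbx6, Kdm2b, Bcor, L3mbtl2 and Kdm6b.

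The 2 demethylase genes were unmarked in all 10 lists. Kdm6a had no KLF4 peak within 50 kb and 2 JMJD3 positions with OSKM, 707 bp and 83165 bp downstream of its TSS. Kdm6b had 5 KLF4 peaks with FLAG, 6 with JMJD3, 9 JMJD3 positions with OSKM, and 2 positions at low KLF4. Among them, 2 KLF4 peaks with JMJD3, 3 JMJD3 positions with OSKM, 1 with low KLF4 and no KLF4 peak with FLAG were in its coding exons. The overexpression vector carries Jmjd3, so there reads from the vector and from the gene cannot be told apart.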

How the data were processed

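The 14 libraries with a peak list were analysed, and the 6 samples of the series without a list, inputs and H3K27ac, were not used here. According to the study's methods and the submitters' processing notes, the authors aligned reads with Bowtie2 (2.2.0 in the notes) to mm10 and called peaks per library with DFilter (H3K27me3) or MACS2 (KLF4 and JMJD3). Drosophila chromatin was added as a spike-in for H3K27me3, and its use in peak calling is not given in the sources used here. The deposited H3K27me3 lists hold 1000-bp intervals, each with a DFilter score that ends at 200 and whose scale is not given, and it served only to rank the peaks of a list. The deposited KLF4 intervals and 1-bp JMJD3 positions carry no score.

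Genes and TSSs were those of the GENCODE M21 basic set for GRCm38. With at least 1 bp of overlap, KLF4 and JMJD3 were counted in the gene and 50 kb on each side and H3K27me3 within 5 kb of its start sites. Midpoints within 400 bp were merged by single linkage. Each count of members stands beside the share of all 21938 protein-coding genes, and no p-value was computed. Motifs were fixed strings. Named were the 9 members, genes of the wider list marked in at least 5 lists or with both factors within 50 kb, the gene nearest each peak described, and the 3 genes most like each member marked in 2 or more lists. A gene of the wider list is not reported here. The members and lists were chosen with earlier results of these data known. The counts within 1 kb of a TSS, the comparisons of calls between FLAG and JMJD3 lists, the counts of H3K27me3 around whole genes, the locus windows and the coding exons of Kdm6b were added after seeing the data. Python 3.11.15, pysam 0.24.0, matplotlib 3.10.9 and bedtools 2.31.1 were used. On simulated data 200 of 200 genes given a peak were recovered, and bedtools made the same calls in the 10 H3K27me3 lists, with 0 genes called differently.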

Additional observations from a re-analysis of the deposited data

How the results depend on the processing

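Under the alternative settings 55 of the main counts stayed within 1.5 times the reported value and 18 did not, and of the values for single genes and motifs 48 stayed and 11 did not. Counting H3K27me3 within 1 kb of a TSS left 2 of 9 members marked in WT MEF (9.73% of all genes), 1 in WT day 5 FLAG (11.8%), 0 in WT day 5 JMJD3 (8.39%), 1 in KO day 5 FLAG (10.8%), 0 in KO day 5 JMJD3 (10.1%), 1 in WT day 10 FLAG (9.62%), 0 in KO day 10 FLAG (10.1%) and 1 in KO day 10 JMJD3 (9.24%), with Cbx8 marked in 0 lists and Bmi1 in 2, since their peaks mostly lie further out. Within 10 kb, KO day 5 JMJD3 had 2 (15.3%), because the peak between Bmi1 and Spag6 then counted for Bmi1. Genes marked with FLAG and not with JMJD3 on day 5 in both genotypes were 2 of 3 as reported (11.4% of all), 1 of 1 within 1 kb (Cbx2; 12.2%), 1 of 3 within 10 kb (Cbx2; 11.1%), 1 of 2 with the better-scoring part of each list (Bmi1; 11.4%), 2 of 3 for protein-coding transcripts (11.4%) and 2 of 3 for lists of equal length (10.9%). On day 10 Bmi1 then had no call in either JMJD3 list with the better-scoring part, and none in the KO list with equal length. The Cbx7 call in WT MEF was lost in both of those settings. With the wider peaks alone, KLF4 with FLAG was at 4 of 9 members (42.6% of all genes) and KLF4 with JMJD3 at 8 of 9, all but Ezh2 (52.1%). Counted within 1 kb of a TSS, an alternative added after seeing the data, KLF4 with FLAG was at 5 members (24.4%), JMJD3 with OSKM at 4 (17.7%) and JMJD3 with low KLF4 at 0 (2.96%). Shared sites numbered 12 with merging at 200 bp and 15 at 1000 bp. In windows of 400 bp the KLF motif was at 6 of 18 KLF4 peaks with FLAG (44.2% of the list) and 11 of 28 with JMJD3 (42.7%).

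By replicate number, each group held 1 library, so replicates could not be paired and no library was left out. The FLAG and JMJD3 lists of the same genotype and day form 4 pairs, and no paired test of these was run. An exact two-sided permutation test of 4 pairs cannot go below p = 0.125. A call is either present or absent, so a peak just under the caller's threshold counts as none. List length differed between the groups, and its part in the calls was not tested beyond the lists of equal length.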
